A study of Mus musculus with 7 samples.

Results

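The keratin genes of mouse epidermis were followed here: the 21 genes of the deposited table whose symbol is Krt followed by a number, out of 7091 genes in the table. The table holds only genes that passed the authors' own test at an adjusted level of 0.05, or 36.5% of the 19407 genes their adjustment ran over. The annotation used here (GENCODE M21, GRCm38) has 53 protein-coding keratin genes, and the 32 that the table does not list, Krt10 among them, were not analysed here, which says nothing about whether they changed. Of the 21, 8 are type I keratins on chromosome 11 and 13 are type II keratins on chromosome 15. RNA was sequenced from epidermis separated from telogen skin of 7 mice that had all received tamoxifen at 8 weeks of age on 3 days in a row, 1 mg per 40 g of body weight, 2 weeks before RNA was taken. The 4 mutants, called KA, are labelled K14-CreERT;ABCA12-cKO and carry a tamoxifen-activated Cre driven by the keratin 14 promoter of basal keratinocytes, with a conditional allele of Abca12, which encodes a lipid transporter needed for the skin barrier. The 3 controls are labelled ABCA12-c/c and carry no CreERT, so the deletion and the presence of active CreERT cannot be told apart. KA 1 and KA 2 were males, KA 3 and KA 4 females, control 2 a male and controls 1 and 3 females.

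Keratins are the intermediate filament proteins of epithelial cells, and each filament is built from pairs of 1 type I and 1 type II protein. Basal keratinocytes of the epidermis use Krt5 with Krt14, and cells that leave the basal layer change to Krt1 with Krt10. Krt6a, Krt6b, Krt16 and Krt17 are found in hair follicles and are switched on between follicles by wounding and inflammation, and other members mark the follicle, the hair shaft or simple epithelia.

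Reads in listed genes came to 9590718 to 12761458 per library and are part of each library, not its depth. The authors' size factors ran from 0.888 to 1.247, and normalised reads are counts divided by them. Abca12 itself was not analysed here, so the genotypes were taken from the labels. Keratins took 10% to 10.3% of the listed normalised reads in controls and 11.6% to 12% in KA. Of the KA libraries, KA 1 stood farthest from the controls and KA 3 nearest. KA 1 was the highest KA library in 61.4% of all genes called higher and the lowest in 56.2% of those called lower. KA 3 was the lowest in 50% and the highest in 47.4% of the same sets. Because of this spread, keratin values are given library by library.

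The first comparison asked which keratins differed between KA and control epidermis. Of the 21 genes, 18 had enough reads to be tested, and all 18 passed at an adjusted p of 0.05 (edgeR's quasi-likelihood test, Benjamini-Hochberg over all genes tested), 8 higher and 10 lower in KA. All 4 stress keratins rose, along with Krt14, Krt5, Krt1 and Krt79. Krt15, Krt77, Krt80, Krt78, Krt2, Krt23, Krt7, Krt8, Krt32 and Krt33a fell. Passing by itself says nothing here, since 100% of all tested genes passed after rounding (6746 of 6749), as the table was made of genes that pass. By direction, 52.7% of all tested genes were called higher and 47.3% lower. That balance turns with the scaling, since with TMM and RLE factors from the listed genes 48.1% and 46.2% of the calls were higher. The tested keratins had a median log2 fold change of -1.53, beside 0.36 over all tested genes. Fitted changes ran from -3.40 in Krt2 to 10.89 in Krt6b on the log2 scale. Only Krt6b and Krt16 lay above 5.84, a value exceeded by 1% of all tested genes, and none lay below -3.89, the value that 1% fall short of. The 2 groups were free of overlap in 20 of the 21 keratins, with Krt71 the exception, and in 93.3% of all listed genes. Each direction held for all 18 tested keratins with any 1 library left out.

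**Figure D1:**
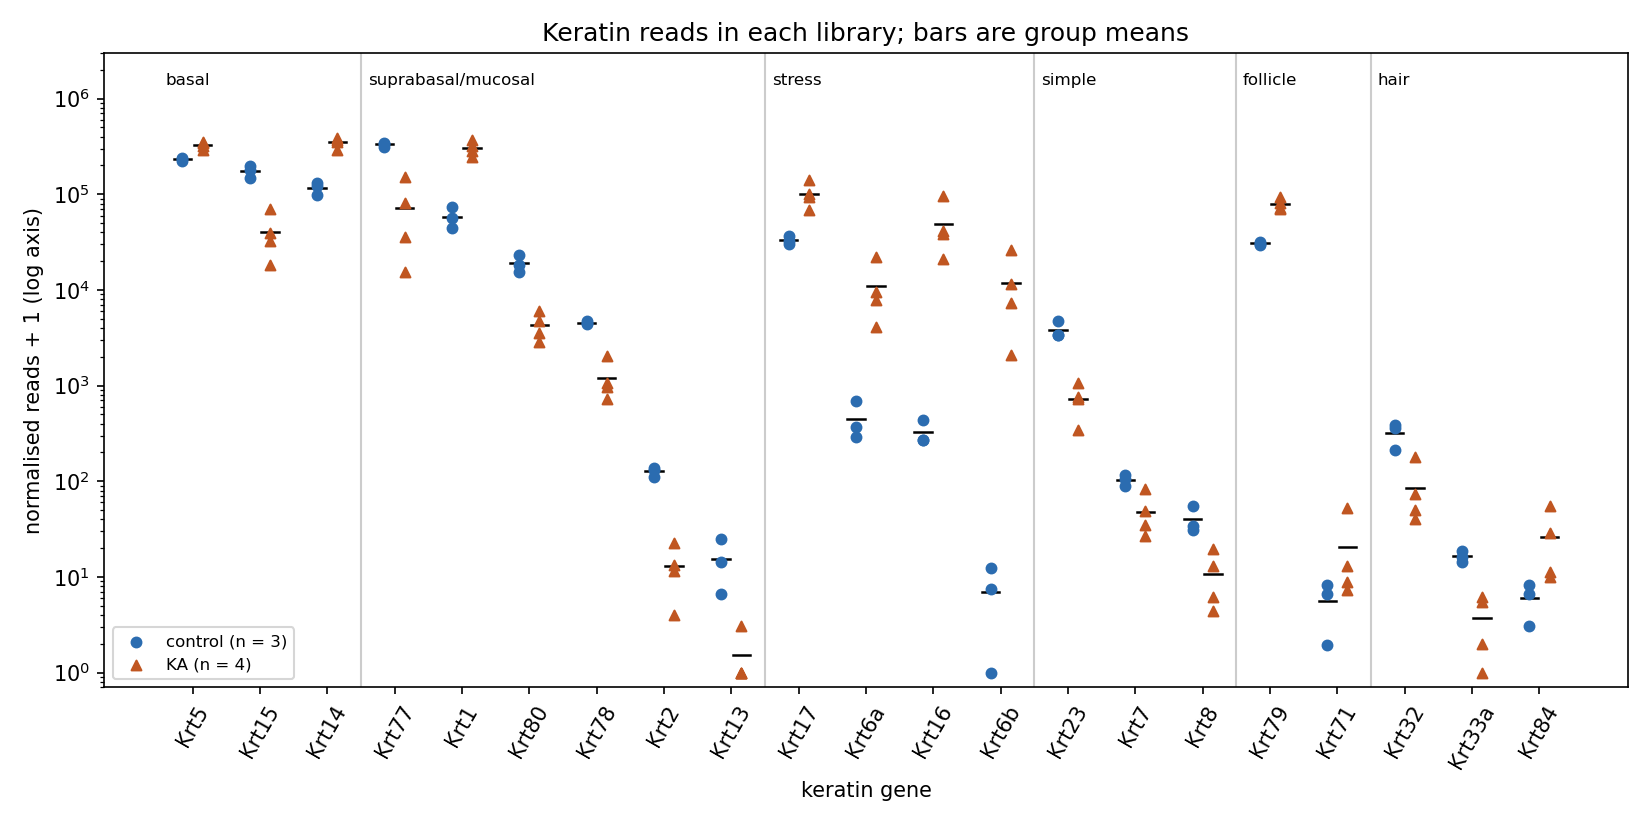
Normalised reads plus 1 on a log axis for each of the 21 listed keratins, grouped by class, with blue circles for 3 control libraries, orange triangles for 4 KA libraries and black bars for group means. The stress keratins Krt6a, Krt6b and Krt16 lie far apart between groups, Krt5 lies close together, and only Krt71 overlaps.

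Basal keratins moved apart. Krt14, the type I partner of Krt5 in the basal layer (ENSMUSG00000045545, chromosome 11, 100203162 to 100207548), had 97831, 121245 and 129687 normalised reads in controls 1, 2 and 3, and 390177, 366562, 289025 and 348492 in KA 1, 2, 3 and 4. Every KA library lay above every control. Means were 116254 ± 16504 (SD, n = 3) in controls and 348564 ± 43207 (SD, n = 4) in KA, a fitted log2 difference of 1.58 (SE 0.18; adjusted p = 5.85e-05, edgeR). Krt5 (ENSMUSG00000061527, chromosome 15, 101707070 to 101712898) had 220535, 233975 and 241216 normalised reads in controls 1, 2 and 3, and 322949.6, 339628, 291476 and 354814 in KA 1, 2, 3 and 4. This was the smallest change among the tested keratins, 1.41-fold, a fitted log2 difference of 0.50 (SE 0.16; adjusted p = 0.0113, edgeR), and the groups still did not overlap. With sample number as a block, which gives KA 4 a level of its own, the change of Krt5 no longer passed (edgeR quasi-likelihood adjusted p = 0.0902). Whether sample numbers pair the mice is not given by the labels. Titles also carry a letter that control and KA mice share, with KA 4 under C as are control 3 and KA 3. No block by letter was fitted. Krt15, a type I keratin of the basal layer and of the stem cells of the follicle bulge (ENSMUSG00000054146, chromosome 11, 100131758 to 100135928), had 148772, 179661 and 196411 normalised reads in controls 1, 2 and 3, and 18090.1, 39308, 70040.3 and 32719.9 in KA 1, 2, 3 and 4. It fell 4.37-fold in the mean, a fitted log2 difference of -2.13 (SE 0.37; adjusted p = 0.000722, edgeR). The fall was deepest in KA 1 and least deep in KA 3, which still held fewer reads than any control. Of 10 bulge and germ markers 6 were listed, 2 called higher and 4 lower, and they summed to 55159 to 68911 normalised reads in controls and 32332 to 58318 in KA. Among them Col17a1, a hemidesmosome collagen, fell from 50806 to 24532 mean normalised reads while Postn, a matrix protein, rose from 5318 to 16342. Col17a1 supplied most of the sum in every library. Lgr5 fell from a mean of 177 to 103, Fgf18 from 143 to 63.4 and Lgr6 from 2363 to 1784, while Sox9 rose from 977 to 1385. The part of these markers in the fall of Krt15 was not tested. In bulk RNA, fewer cells of a type and less RNA per cell cannot be told apart.

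Suprabasal keratins moved in both directions, with 1 of 5 tested members called higher and 4 lower. Krt1, which marks the first step of differentiation (ENSMUSG00000046834, chromosome 15, 101845426 to 101850794), had 56989.9, 72833 and 44379 normalised reads in controls 1, 2 and 3, and 321819, 280279.9, 368586 and 246596 in KA 1, 2, 3 and 4. It rose 5.24-fold in the mean, a fitted log2 difference of 2.39 (SE 0.23; adjusted p = 2.03e-05, edgeR), and its KA values differed 1.49-fold from lowest to highest. Krt77, a type II keratin related to Krt1 (ENSMUSG00000067594, chromosome 15, 101858731 to 101869705), moved the other way. Its normalised reads were the highest of all listed keratins in each control. Krt77 had 339336, 308461 and 346925 normalised reads in controls 1, 2 and 3, and 15225, 35629.9, 152735 and 81006 in KA 1, 2, 3 and 4. All KA libraries lay below all controls, but they were spread 10-fold, with KA 1 lowest and KA 3 highest. The fit gave a fitted log2 difference of -2.22 (SE 0.64; adjusted p = 0.0101, edgeR). Without KA 3 the fall of Krt77 grew from 4.66-fold to 7.54-fold.

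The other tested suprabasal keratins fell. Krt80, found in late differentiation (ENSMUSG00000037185, chromosome 15, 101347444 to 101370162), had 23442, 15555 and 18234 normalised reads in controls 1, 2 and 3, and 2869, 3582, 6045 and 4764 in KA 1, 2, 3 and 4, a fitted log2 difference of -2.14 (SE 0.24; adjusted p = 6.44e-05, edgeR). Krt78, a suprabasal keratin (ENSMUSG00000050463, chromosome 15, 101946001 to 101954287), had 4519, 4716 and 4413 normalised reads in controls 1, 2 and 3, and 722, 967, 2020.0 and 1055 in KA 1, 2, 3 and 4, a fitted log2 difference of -1.93 (SE 0.29; adjusted p = 0.000389, edgeR). In both genes KA 1 was the lowest library and KA 3 the highest of the KA group. Krt2, a keratin of the upper spinous and granular layers (ENSMUSG00000064201, chromosome 15, 101810689 to 101818169), was scarce in these samples. It had 111, 137 and 132 normalised reads in controls 1, 2 and 3, and 2.97, 12.4, 10.4 and 21.8 in KA 1, 2, 3 and 4, 10.6-fold lower in the mean, a fitted log2 difference of -3.40 (SE 0.43; adjusted p = 8.78e-05, edgeR). Krt13, a keratin of mucosal epithelia (ENSMUSG00000044041, chromosome 11, 100117327 to 100121566), had too few reads to be tested, with counts of 6, 13 and 30 in the controls and 0, 0, 0 and 2 in KA 1, 2, 3 and 4. All KA libraries were thus at or under a floor of 3 counts, and against that floor, taken per library, Krt13 was at least 4.57-fold lower. Floors and bounds cover counting error only.

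All 4 stress keratins were listed and all 4 rose. Krt16 (ENSMUSG00000053797, chromosome 11, 100246091 to 100248902) had 267, 271 and 431 normalised reads in controls 1, 2 and 3, and 96091, 38396, 21201 and 41011 in KA 1, 2, 3 and 4. It was 152-fold higher in the mean, a fitted log2 difference of 7.25 (SE 0.62; adjusted p = 3.5e-05, edgeR). KA 1 held the most reads by a wide margin, and the lowest KA library was still far above every control. Krt17 (ENSMUSG00000035557, chromosome 11, 100256217 to 100261029) was already abundant in controls, with 32485, 30367 and 36983 normalised reads in controls 1, 2 and 3, and 139549, 101405, 68293 and 94704 in KA 1, 2, 3 and 4. Its rise was 3.03-fold, a fitted log2 difference of 1.60 (SE 0.23; adjusted p = 0.000182, edgeR), a size close to that of Krt14. Krt6a (ENSMUSG00000058354, chromosome 15, 101689910 to 101694307) had 372, 288 and 695 normalised reads in controls 1, 2 and 3, and 22218, 9507, 4072 and 7821 in KA 1, 2, 3 and 4, a fitted log2 difference of 4.59 (SE 0.65; adjusted p = 0.000376, edgeR). Krt6b (ENSMUSG00000023041, chromosome 15, 101676023 to 101680287) was nearly silent in controls, with counts of 12, 0 and 8, where a count of 0 allows up to 3. In KA 1, 2, 3 and 4 it had 26716, 6487, 1987 and 11039 counts. It showed the largest change of any tested keratin, a fitted log2 difference of 10.89 (SE 1.24; adjusted p = 0.000135, edgeR). All 4 stress keratins were highest in KA 1 and lowest in KA 3.

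The sizes for Krt6a, Krt6b and Krt16 depend on KA 1, and that of Krt6b also on few control reads. The fitted log2 difference of Krt16 went from 7.25 to 6.69 without KA 1. Without KA 1 the fold of Krt6b went from 1904 to 1118 and that of Krt6a from 24.1 to 15.7, and without control 1 the fold of Krt6b went to 3198. The transcripts of Krt6a and Krt6b are also alike. Of the windows of 100 bases in the longest annotated Krt6b transcript, 30.1% occur letter for letter in another keratin transcript, all in Krt6a. How reads were divided between these 2 genes is thus uncertain. The sum of both does not depend on that division, but it misses any shared reads that were left uncounted. That sum was 383, 288 and 701 normalised reads in controls 1, 2 and 3 and 48645, 16816, 6148 and 19281 in KA 1, 2, 3 and 4. Krt6b supplied 2.96%, 0% and 0.915% of the Krt6a and Krt6b reads in the controls and 54.3%, 43.5%, 33.8% and 59.4% in KA 1, 2, 3 and 4. The share in every KA library was thus above that in every control. Of the other listed keratins, Krt33a shared 12.4% of its windows with Krt34, Krt16 3.14% with Krt14, Krt14 2.88% with Krt16 and Krt5 2.38% with Krt6a. The remaining 15 shared none.

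**Figure D2:**
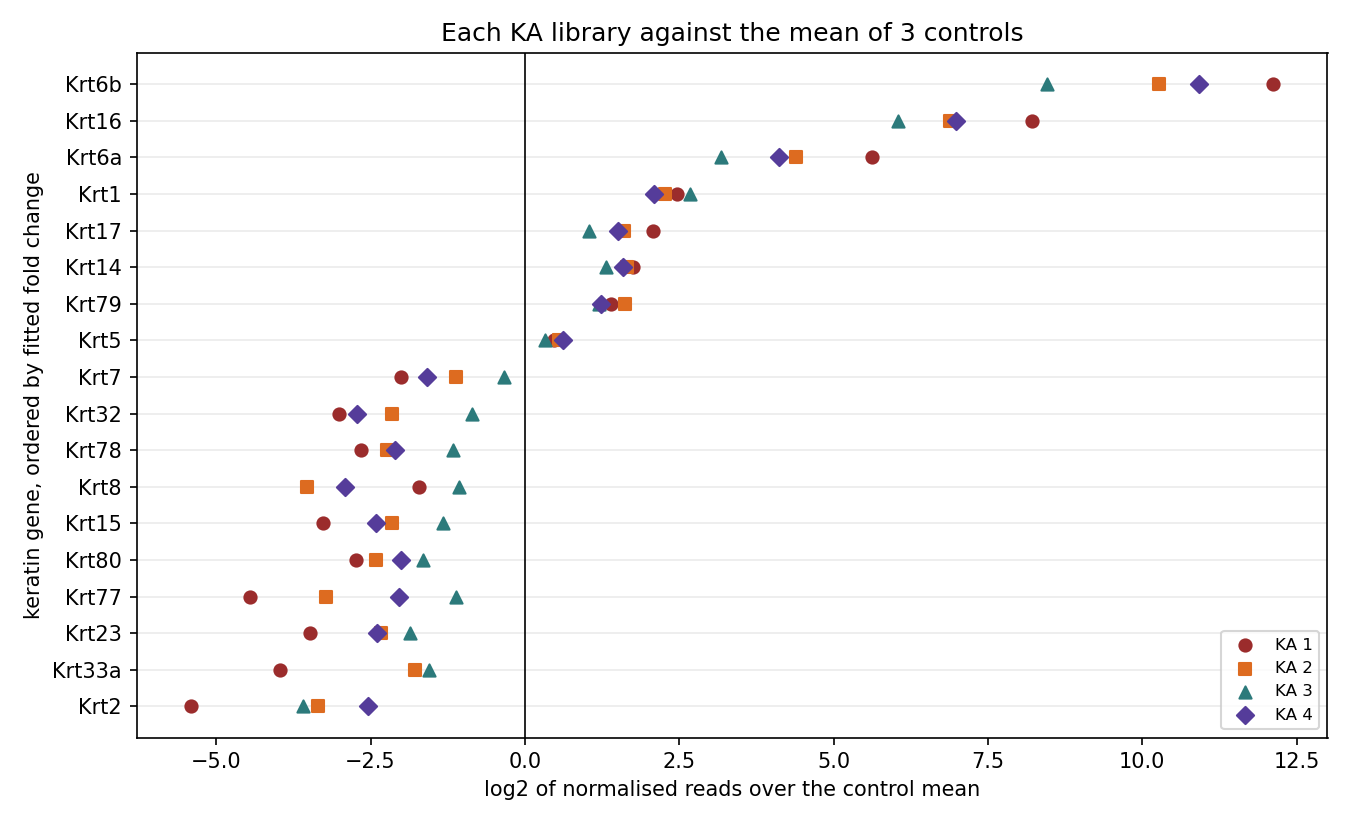
The log2 of normalised reads in each KA library over the mean of 3 controls, for the 18 tested keratins ordered by fitted fold change, with 1 symbol per KA library (Krt33a had no reads in KA 4 and has 3 symbols). KA 1 lies outermost for most keratins, KA 3 lies nearest to 0 for most, and no symbol crosses 0.

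Keratins of simple epithelia fell, all 3 of those tested. Krt23, a type I keratin of some glandular epithelia (ENSMUSG00000006777, chromosome 11, 99477974 to 99493137), was by far the most abundant of them. It had 3397, 3350.5 and 4686 normalised reads in controls 1, 2 and 3, and 340, 755, 1051 and 723 in KA 1, 2, 3 and 4, a fitted log2 difference of -2.41 (SE 0.31; adjusted p = 0.000189, edgeR). Krt7 (ENSMUSG00000023039, chromosome 15, 101411043 to 101430313) had 105, 88.7 and 115 normalised reads in controls 1, 2 and 3, and 25.7, 47.3, 81.5 and 34.3 in KA 1, 2, 3 and 4, a fitted log2 difference of -1.13 (SE 0.35; adjusted p = 0.0113, edgeR). Krt8 (ENSMUSG00000049382, chromosome 15, 101996698 to 102004482) had 33.1, 29.9 and 54.5 normalised reads in controls 1, 2 and 3, and 11.9, 3.38, 18.8 and 5.19 in KA 1, 2, 3 and 4, a fitted log2 difference of -1.98 (SE 0.50; adjusted p = 0.00411, edgeR). Both were scarce, and in both KA 3 came closest to the controls. Krt8 is also a keratin of Merkel cells, the touch cells of the epidermis, and none of 7 Merkel cell markers was listed. Of 6 markers of sweat gland and simple epithelium 3 were listed, with Elf5 and Epcam, the latter also a Langerhans cell marker, called higher and Cldn4 lower, and they summed to 6854 to 9952 normalised reads in controls and 9286 to 11292 in KA. The part of either cell type in these falls was not tested.

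Of 10 follicle keratins in the class as drawn up here, which includes Krt74 from outside the 53 annotated genes, 2 were listed. Both had higher means in KA. Krt79, which marks the upper follicle and the sebaceous duct (ENSMUSG00000061397, chromosome 15, 101929332 to 101940324), had 29552, 30554 and 31642 normalised reads in controls 1, 2 and 3, and 80349, 94150.3, 70647 and 72152 in KA 1, 2, 3 and 4. The rise was 2.59-fold, a fitted log2 difference of 1.38 (SE 0.16; adjusted p = 5.13e-05, edgeR), with KA values only 1.33-fold apart. Of 9 sebaceous gland markers 8 were listed, beside 36.5% of the genes in the authors' adjustment. All 8 were called higher, beside 52.7% of all tested genes, nearly all of which were called in 1 direction or the other. They summed to 22816 to 34628 normalised reads in controls and 45253 to 60235 in KA. Scd1 was the largest part of that sum, with means of 22197 in controls and 36761 in KA. The part of these markers in the rise of Krt79 was not tested. Krt71, a keratin of the inner root sheath (ENSMUSG00000051879, chromosome 15, 101733949 to 101743109), had too few reads to be tested, with 0.947, 7.22 and 5.61 normalised reads in controls 1, 2 and 3, and 11.9, 7.89, 51.2 and 6.23 in KA 1, 2, 3 and 4, and the groups overlapped. Without the filter on low counts the fitted log2 difference was 2.05 (SE 0.87; adjusted p = 0.0388, edgeR). That adjustment ran over the listed genes only and barely moved the unadjusted p of 0.0387 (edgeR).

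Of 16 hair keratins in the class as drawn up here, which includes Krt85 from outside the 53 annotated genes, 3 were listed. Of these 2 fell and 1 was not tested. Krt32 (ENSMUSG00000046095, chromosome 11, 100080848 to 100088226) had 210, 389 and 362 normalised reads in controls 1, 2 and 3, and 39.6, 72.1, 177 and 48.8 in KA 1, 2, 3 and 4, a fitted log2 difference of -1.93 (SE 0.47; adjusted p = 0.00419, edgeR). Without KA 3 its fall grew from 3.8-fold to 6.01-fold. Krt33a (ENSMUSG00000035592, chromosome 11, 100011195 to 100016212) had 15.1, 13.4 and 17.6 normalised reads in controls 1, 2 and 3, and 0.989, 4.51, 5.22 and 0 in KA 1, 2, 3 and 4, a fitted log2 difference of -2.50 (SE 0.65; adjusted p = 0.00482, edgeR). Krt84 (ENSMUSG00000044294, chromosome 15, 101525026 to 101532820) was not tested for lack of reads and had 5.68, 2.06 and 7.22 normalised reads in controls 1, 2 and 3, and 8.9, 10.1, 54.3 and 28 in KA 1, 2, 3 and 4. Its KA values all lay above the controls, but the 2 groups came within a few reads of each other. Without the filter the fitted log2 difference was 2.28 (SE 0.73; adjusted p = 0.0116, edgeR). Of 9 hair matrix and shaft markers other than keratins 2 were listed. Lef1 was called lower, Padi3 held no reads in any control, and the 2 summed to 13.3 to 27.8 normalised reads in controls and 1.98 to 14.6 in KA. Their part was not tested.

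The second comparison asked how the balance among keratins changed. Levels were compared between genes as normalised reads per kb of gene length. In controls the order from the top was Krt77 (113127 ± 6951 per kb, SD, n = 3), Krt5 (105557 ± 4776), Krt15 (99008 ± 13677) and Krt14 (66129 ± 9388). The ranges of Krt77, Krt5 and Krt15 over the controls overlapped, so their order is not resolved, while Krt14 lay below all of them. In KA the order was Krt14 (198273 ± 24577 per kb, SD, n = 4), Krt5 (148938 ± 12358), Krt1 (68929 ± 11947), Krt17 (65111 ± 18965) and Krt16 (31422 ± 20759), with Krt77 (24275 ± 20793) and Krt15 (22659.7 ± 12381) next. Krt14 lay above Krt5 and Krt5 above the rest in range. From Krt1 to Krt15 each range overlapped the next, so that order is not resolved, although every KA value of Krt1 was above every value of Krt77 and Krt15. The table's length for Krt1, 4415 bases, is longer than the longest annotated transcript, 2455 bases, and on transcript length Krt1 in KA came to 123959 ± 21485 per kb. On that length its range overlapped that of Krt5, the order of the first 4 means in KA was the same, and Krt79, at 37828 ± 5133 in place of 16689 ± 2265, moved ahead of Krt16.

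Ratios within a library do not depend on scaling. Krt14 to Krt5, the basal pair, was 0.554, 0.648 and 0.672 per kb in controls 1, 2 and 3 and 1.51, 1.35, 1.24 and 1.23 in KA 1, 2, 3 and 4. The ratio was thus below 1 in every control, above 1 in every KA library and 2.13-fold higher in the mean. Krt16 to Krt6a was 1.11, 1.46 and 0.96 in the controls and 6.68, 6.24, 8.04 and 8.1 in KA, 6.18-fold higher in the mean. Against Krt6a and Krt6b together, a sum chosen after the data were seen, Krt16 stood at 1.07, 1.46 and 0.95 in the controls and 2.92, 3.41, 5.19 and 3.13 in KA, 3.16-fold higher in the mean. The size of this difference thus depends on whether Krt6b is counted with Krt6a, while the groups did not overlap either way. Krt17 to Krt6b was 4120.4 and 8306 in controls 1 and 3, undefined in control 2, where Krt6b had no reads, and 7.61, 20, 47.4 and 11.9 in KA. Krt15 to Krt14, both type I, stood at 1.51, 1.47 and 1.51 in the controls, which barely differed. In KA 1, 2, 3 and 4 it was 0.0461, 0.107, 0.241 and 0.0934. Krt77 to Krt1, both type II, was 8.97, 6.38 and 11.8 in the controls and 0.0713, 0.191, 0.624 and 0.495 in KA, so the more abundant gene of the pair changed in every KA library. On transcript length it ran from 3.55 to 6.55 in the controls and from 0.0396 to 0.347 in KA. Krt77 and Krt15 were chosen for these last ratios after their values were seen. The partners Krt10, Krt18 and Krt19 are not among the listed genes and give no ratio here.

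**Figure D3:**
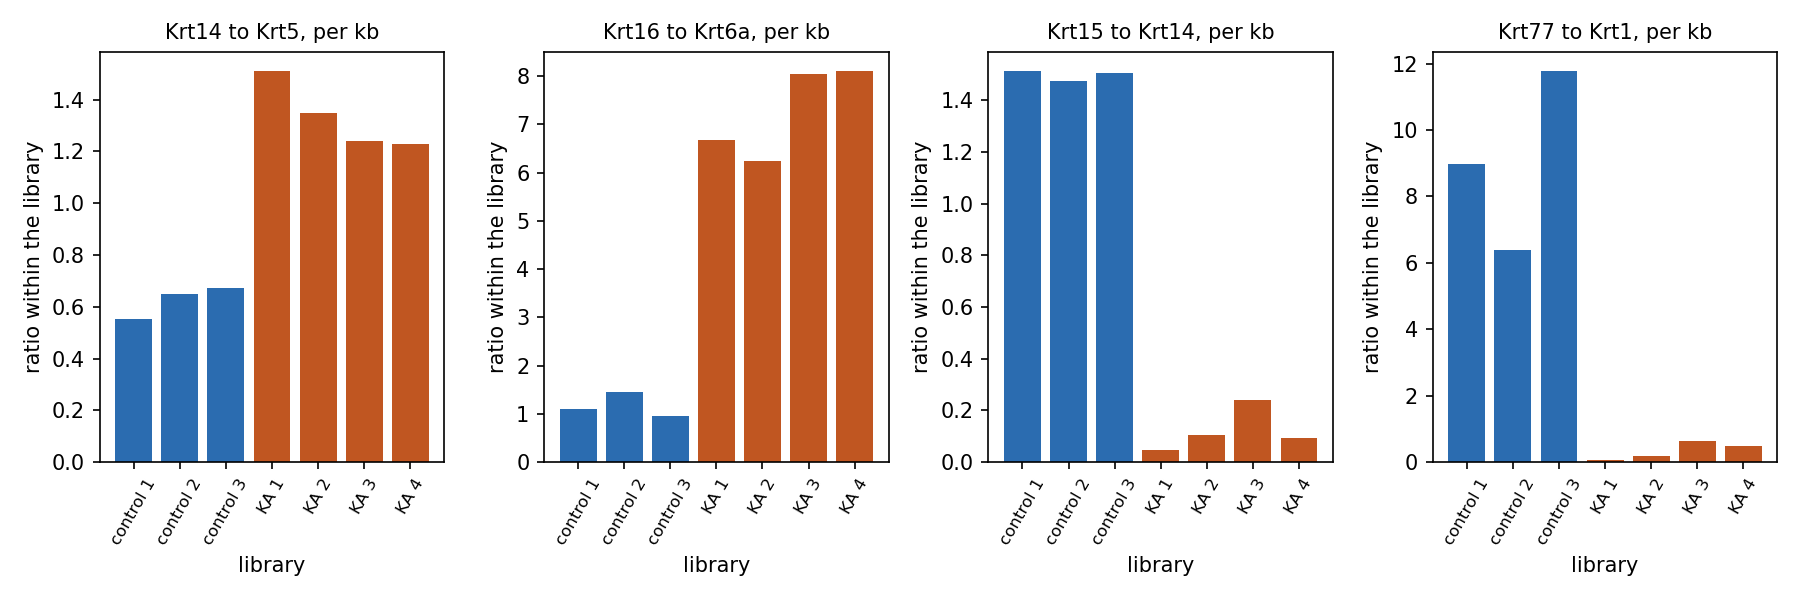
Ratios of normalised reads per kb between pairs of keratins within each library, blue for controls and orange for KA. Krt14 to Krt5 and Krt16 to Krt6a are higher in all 4 KA libraries than in all 3 controls, and Krt15 to Krt14 and Krt77 to Krt1 are lower.

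Summed over listed genes, keratin reads changed by less than most single members did. Type I genes summed to 282983, 335309 and 368601 in controls 1, 2 and 3 and 644288, 546502, 449792 and 517699.9 in KA 1, 2, 3 and 4. Type II genes summed to 675014, 666648 and 687825 in controls 1, 2 and 3 and 792639.8, 771134, 897872 and 779764 in KA 1, 2, 3 and 4. Type I sums were 1.64-fold higher in KA in the mean and type II sums 1.2-fold, with no overlap between groups in either. The type II rise depends on scaling: its mean log2 difference was 0.26 with the authors' factors and 0.12 with TMM factors computed from the listed genes. Type I supplied 32.6% ± 2.77 (SD, n = 3) of listed keratin reads in controls and 39.9% ± 4.81 (SD, n = 4) in KA, where KA 3, at 33.4%, lay within the range of the controls. Listed keratins only enter these sums, so they are not the sums of all type I or type II keratins.

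Within that total, the make-up was exchanged. Stress keratins took 3.38% ± 0.269 of listed keratin reads in controls (SD, n = 3) and 12.7% ± 5.25 in KA (SD, n = 4). Krt77 took 33% ± 2.32 in controls and 5.34% ± 4.55 in KA, and Krt15 17.4% ± 1.61 in controls and 2.99% ± 1.64 in KA. Krt1 took 5.81% ± 1.54 in controls and 22.5% ± 3.52 in KA, and Krt14 11.5% ± 1.14 in controls and 25.8% ± 2.94 in KA. Krt5 took 23.1% ± 0.263 in controls and 24.3% ± 2.7 in KA. The 3 basal keratins together took 51.9% in controls and 53.1% in KA, with overlapping ranges, while their make-up changed from mostly Krt5 and Krt15 to mostly Krt5 and Krt14. These are shares of reads, not corrected for gene length.

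**Figure D4:**
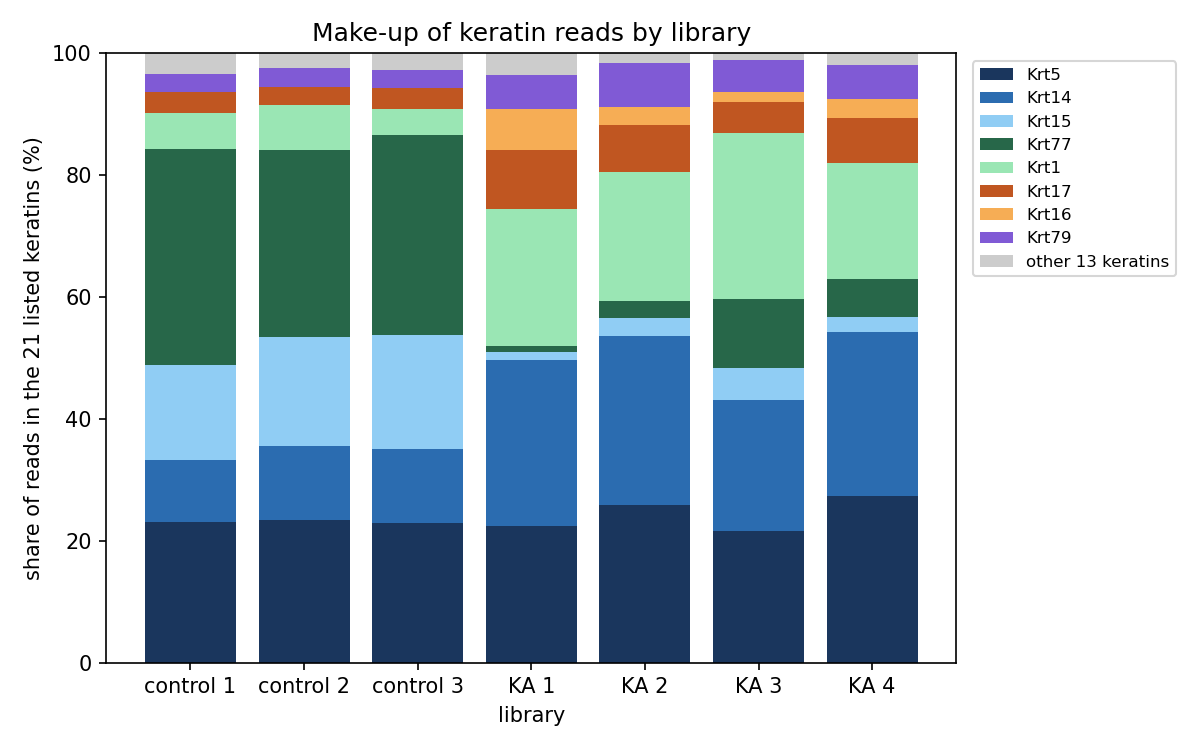
Share of normalised reads in the 21 listed keratins taken by 8 of them in each library, not corrected for gene length, with the other 13 in grey. Krt77 (dark green) and Krt15 (pale blue) take large shares in the 3 controls and small ones in the 4 KA libraries, where Krt1, Krt14, Krt17 and Krt16 take more, and Krt5 takes 23.1% on average in controls and 24.3% in KA.

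The third comparison asked how the KA libraries differed among themselves. KA 1 was the highest of the 4 in 5 of the 8 keratins that rose and the lowest in 8 of the 10 that fell. KA 3 was the lowest in 7 of the 8 that rose and the highest in 9 of the 10 that fell. The corresponding shares over all genes, given above, ran from 47.4% to 61.4%, so the same libraries stood at the ends in the table as a whole. Krt1 was an exception among those that rose, being highest in KA 3 and lowest in KA 4. Among keratins that fell, Krt2 was highest in KA 4 and Krt8 was lowest in KA 2. KA 1 and KA 2 are males from the lower run of animal numbers and KA 3 and KA 4 females from the higher run, so sex and run cannot be told apart within KA. Sex and its product with genotype were added to the fit, and the product was tested. No keratin passed for a KA difference that differed between the sexes (edgeR quasi-likelihood test, 0 of 18), where 0.0445% of all genes did. At an unadjusted p under 0.05 there were 2, Krt77 and Krt6a, beside 2.84% of all genes, and DESeq2 called 0 with 5 unadjusted. For Krt77 the log2 difference in males less that in females was -2.05 (SE 0.64), a deeper fall in males, and for Krt6a it was 2.31 (SE 0.92). Neither passed the correction. The controls hold 1 male, which limits this test.

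Position within the gene clusters was compared next. On chromosome 11, Krt14, Krt16 and Krt17 lie together and all rose, while every listed keratin before them in coordinate order, from Krt23 to Krt15, was lower. Krt16 and Krt17 are 7.31 kb apart. On chromosome 15, Krt6b, Krt6a and Krt5 lie next to each other and all rose. Krt71, next to Krt5, had a higher mean too but was not tested. In a stretch picked out after the values were seen, the directions alternated: Krt2 fell, Krt1 rose, Krt77 fell, Krt79 rose and Krt78 fell, with 2 keratin genes that are not listed between Krt77 and Krt79. Krt8, the next listed gene after Krt78, fell as Krt78 did. Krt1 and Krt77 are 7.94 kb apart and Krt79 and Krt78 5.68 kb. Of 11 neighbouring listed pairs with no annotated keratin gene between them, 8 had means moving in the same direction and 3 in opposite directions.

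**Figure D5:**
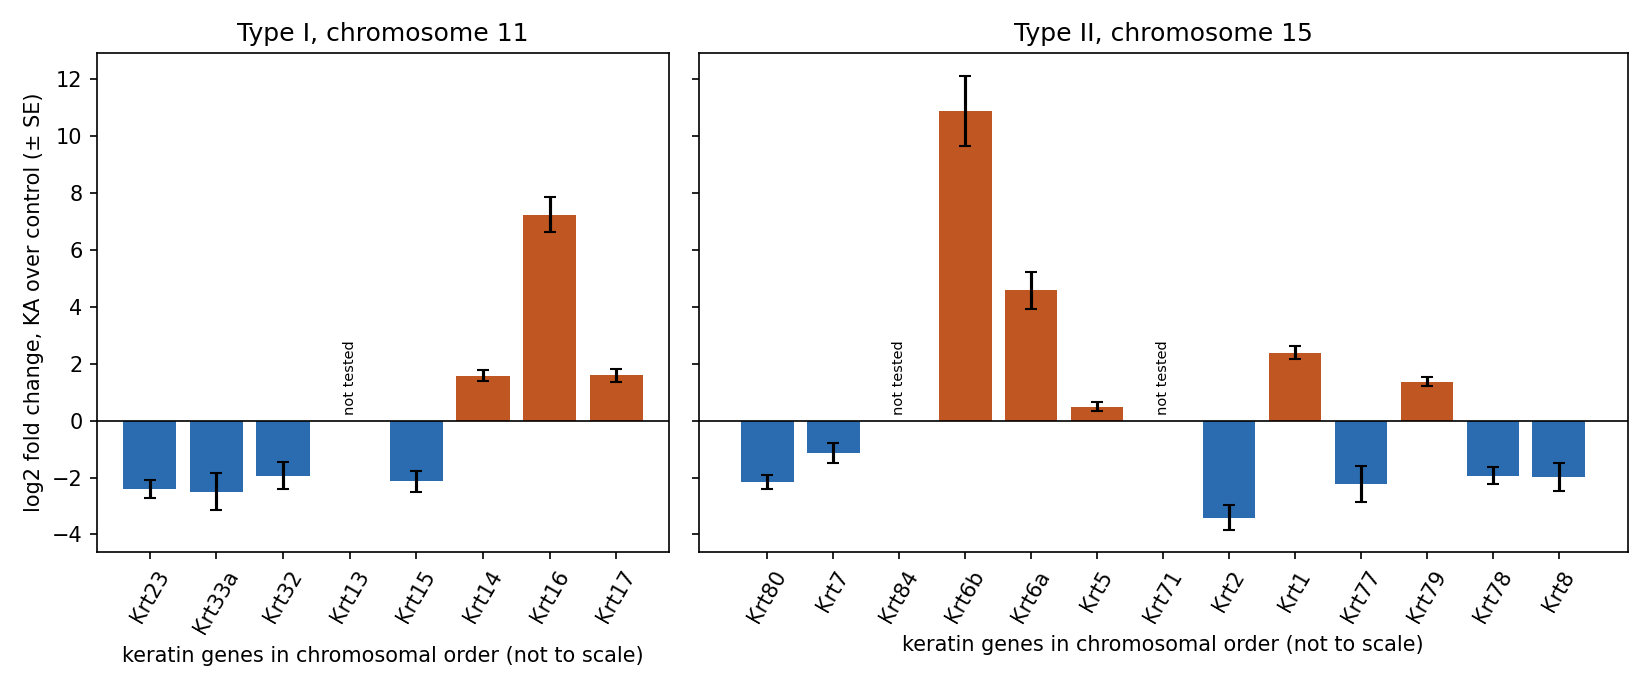
Fitted log2 fold change of KA over control with its standard error for each listed keratin, in chromosomal order and not to scale, type I on the left and type II on the right, orange for higher and blue for lower. A run of rises stands at the right end of the type I panel, and rises and falls alternate from Krt2 to Krt78 in the type II panel. Krt13, Krt84 and Krt71 had too few reads to be tested.

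The sequence before the start site was read for genes of the alternating stretch and for Krt5. RefSeq promoter windows on GRCm38.p6 were found for 13 of the 21 keratins, and for 11 a window began within 150 bases of the gene start in the table. The 120 bases before the start of Krt5, Krt77, Krt79 and Krt78 are printed as examples that rose and fell, all on the minus strand, 5′ to 3′, with capitals marking ATAAA where it begins 40 to 20 bases before the start. Krt5 (chr15:101712906-101713025) and Krt79 (chr15:101940325-101940444) rose, and Krt77 (chr15:101869706-101869825) and Krt78 (chr15:101954288-101954407) fell.
Krt5: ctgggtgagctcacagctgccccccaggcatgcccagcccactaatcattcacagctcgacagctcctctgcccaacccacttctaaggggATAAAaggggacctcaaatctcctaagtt
Krt79: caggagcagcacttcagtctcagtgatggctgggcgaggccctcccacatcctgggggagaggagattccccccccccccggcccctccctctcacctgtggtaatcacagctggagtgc
Krt77: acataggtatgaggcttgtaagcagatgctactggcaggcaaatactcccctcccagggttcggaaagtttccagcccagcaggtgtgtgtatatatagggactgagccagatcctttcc
Krt78: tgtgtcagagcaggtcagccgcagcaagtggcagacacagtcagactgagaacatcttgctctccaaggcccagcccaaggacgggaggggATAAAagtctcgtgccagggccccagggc
The letters ATAAA, chosen after these windows were read and searched on the transcribed strand, begin in that stretch in 7 of 11 keratin windows, beside 4.25% of the 32851 RefSeq promoter windows. They occur in 3 of 4 keratins with higher and 4 of 7 with lower means in KA. Over the full 300 bases and both strands, TATAAA was found in 4 of the 11 windows and 13.6% of all, TGANTCA, a motif of AP-1, in 1 and 7.81%, and GCCNNNGGC, a motif of AP-2, in 0 and 16.6%. TATAAA overlaps ATAAA. A match is a description of letters and not a site.

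Genes that anchor keratin filaments or are known to act on keratin genes were counted as a list of 47, of which 25 were listed. All 25 were tested and called, 13 higher and 12 lower, with a median log2 fold change of 0.46, beside 0.36 over all tested genes, 52.7% of which were called higher. Of the plakins among the 47, many of which tie filaments to cell junctions, 4 were listed, Plec, Dst, Ppl and Eppk1. Dsp and Evpl were not. All 4 fell, beside 47.3% of all tested genes called lower, and 3 of them were named after their values were seen. In normalised reads, Dst, which joins keratins to hemidesmosomes, fell from 24069.8 ± 2503 (SD, n = 3) to a KA mean of 9217 ± 2161 (SD, n = 4). The filament-bundling proteins split. Flg, filaggrin, rose from 426 ± 63.3 (SD, n = 3) to a KA mean of 3387 ± 1906 (SD, n = 4), while Flg2, its relative, fell from 8118 ± 1336 (SD, n = 3) to a KA mean of 397 ± 345 (SD, n = 4). Tgm3, an enzyme that cross-links the cornified envelope, rose from 191 ± 110 (SD, n = 3) to a KA mean of 1740.2 ± 180 (SD, n = 4). Among transcription factors Cebpb rose from 3040.1 ± 360 (SD, n = 3) to a KA mean of 7722 ± 1811 (SD, n = 4) and Gata3 fell from 12933 ± 874 (SD, n = 3) to a KA mean of 4261 ± 1176 (SD, n = 4). Vim, the intermediate filament protein of non-epithelial cells, rose from 2088 ± 414 (SD, n = 3) to a KA mean of 4559 ± 507 (SD, n = 4), and was named after its values were seen.

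Markers of other cells in the sample moved as well. The counts of these lists stand beside 36.5% of the genes in the authors' adjustment listed. Of all tested genes, 52.7% were called higher and 47.3% lower, so being called says nothing by itself. All 6 Langerhans cell markers were listed and called higher, and they summed to 24336 to 33982 normalised reads in controls and 46501 to 68812 in KA. Cd74 was the largest part of that sum, from a mean of 12237 to 28021, and Cd207 rose from 699 to 1369. Of 6 T cell markers 4 were listed, 1 higher and 3 lower, and of 6 neutrophil and myeloid markers 3, 2 higher and 1 lower. T cell markers summed to 1163 to 1499.7 normalised reads in controls and 635 to 732 in KA. Within that sum Trdc fell from a mean of 444 to 138, and Cd3e and Cd3g fell too, while Trac rose from 44.4 to 90.3. Neutrophil and myeloid markers summed to 58.5 to 130 normalised reads in controls and 282 to 533 in KA. Most of that myeloid rise was Cxcr2, from a mean of 1.68 to 279. Lyz2 rose from 31.8 to 107, while Fcgr3 fell from 68.8 to 25.7. Of 5 melanocyte markers 1 was listed and called lower, and of 4 endothelial markers 1, called higher. The melanocyte marker, Dct, had 102 to 205 normalised reads in controls and 52.9 to 117 in KA. Pecam1, the endothelial marker, had 11.4 to 17.6 normalised reads in controls and 34.5 to 55.4 in KA. None of 7 fibroblast and 5 skeletal muscle markers was listed. The part of these cells in the keratin differences was not tested.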

How the data were processed

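RNA from the epidermis of 7 mice (4 KA, 3 controls, 1 library each) was sequenced by the authors. The submitters' processing notes name fastp, STAR 2.6.1d, featureCounts 1.5.0-p3, DESeq2 1.40.2 and mm10. The strand setting and annotation are not given in the sources used here. Per the file headers, the deposited table holds raw counts for each gene, normalized reads, a signal that the authors made by dividing counts by 1 size factor per sample, as the values show, and the authors' mean signal. The authors' p-values, raw and adjusted, served only to infer how many genes were adjusted over. The deposited log2 fold changes, their errors and the deposited test score were not used for any result. Gene length is the deposited length. 0 columns belonged to other samples.

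Counts were fitted with edgeR 4.0.16 in R 4.3.3 on the whole table. Library sizes were set from the authors' size factors (counts over normalized reads), because factors recomputed from a table of changed genes alone can shift every difference. filterByExpr by group left out 342 genes, 3 of them keratins, and kept 6749. glmQLFit with robust dispersions, glmQLFTest and Benjamini-Hochberg adjustment over genes tested were used, with a threshold of 0.05. Each SE is the fitted log2 difference divided by the root of its F statistic. The code was tested on simulated data with 200 changed genes and the same dispersion for every gene. Nearly all genes of the real table were called, so the simulation checks the code and not the calls made here. Groups and sexes came from sample titles. P-values set each difference against the spread between these mice, for genes already chosen because they differed between the same mice.

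The keratins, their classes and the gene lists were chosen with earlier results of these data known. Every listed keratin was named. The rule asked for values by library where a mean reached 1000 normalised reads or the gene led its class, and here all are given so. Linker genes named are the 3 largest rises and 3 largest falls with a mean of at least 100 normalised reads in either group. Alternatives were TMM and RLE factors, no filter, DESeq2 1.42.0, adjustment over 19407 genes, a log2 fold change of at least 1, sex, run of animal numbers or sample number in the model, and each library left out. Positions are 1-based on GRCm38, and all 21 keratins had the start and end of GENCODE M21.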

Additional observations from a re-analysis of the deposited data

Results flagged for a closer look

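In 2 of the 21 keratins the gap beside an extreme KA value, divided by the range of the 4 KA libraries, passed Dixon's 95% limit. Chance passes about 1 in 20 groups. For Krt13 the quotient of 1.0 carries no information: 3 libraries were tied at 0, which fixes it for any other value, and the 2 counts of KA 4 lie under the floor of 3. For Krt71 it was 0.875, with 51.2 normalised reads in KA 3 against 6.23 to 11.9 elsewhere in KA. Both genes had too few reads to be tested.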

How the results depend on the processing

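Under 16 alternatives each, all 18 tested keratins kept their direction, and their calls too, except that Krt5 missed a log2 fold change of 1 and lost its call with the sample number as a block (log2 fold change 0.45, edgeR adjusted p = 0.0902). That replicate block left 7 keratins higher and 10 lower. The labels do not say whether the numbers pair the mice. Same-numbered libraries had correlations of -0.192, 0.129 and -0.097 of their deviations from the group means. KA 4 has no control of its number and took a level of its own in the block. Sample titles also carry a letter, A, B or C, that control and KA mice share, and no block by letter was fitted. TMM and RLE factors moved the median log2 difference of all genes by -0.13 and -0.17 and left keratin calls as they were. Taking Krt6a and Krt6b together, an alternative chosen after seeing the data, brought the rise of the Krt16 to Krt6a ratio from 6.18-fold to 3.16-fold. TMM and RLE factors brought the log2 difference of summed type II reads to 0.12 and 0.086. Requiring a log2 fold change of at least 1 left 7 keratins higher, without Krt5, and 6 linker and regulator genes higher and 6 lower. Without the filter all 21 keratins passed, 10 higher and 11 lower, Krt71 among them although its groups overlapped. Passing says nothing by itself here either, since the adjustment ran only over genes that had passed the authors' test. With the sample number or the run of animal numbers in the model the fall of Krt77 grew to 7.7-fold and 7.57-fold. The cause was not tested. The sex model could not be fitted without control 2, the only control male. Where keratins have few reads (Krt13, Krt33a, Krt71, Krt84), depth limits what can be told.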
